A study of Mus musculus with 10 samples.

Results

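The genes described here encode the proteins of the mitochondrial ribosome, in splenic B cells of wild-type and Sca1-Bcl6 transgenic mice. They were chosen by symbol: every probe set with exactly 1 gene symbol that starts with Mrpl or Mrps followed by a digit. This gave 85 of the 21640 single-symbol probe sets, which stand for 77 of 19937 genes: 48 large subunit genes (Mrpl) and 29 small subunit genes (Mrps). All 77 matched a RefSeq gene; they lie on 17 chromosomes, and 0 lie on X or Y. No filter on low values was applied, so all 77 were tested.

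RNA from B220+CD22+ cells, sorted from spleen by flow cytometry, was hybridised to 10 Affymetrix Mouse Gene 1.0 ST arrays. All mice had the strain label CBAxC57BL/6J. Of the arrays, 3 were from wild-type mice, 3 from Sca1-Bcl6(floxed) mice (floxed below) and 4 from Sca1-Bcl6(delta) mice (delta below). The floxed mice carry a transgene in which the Ly6a (Sca1) vector holds mouse Bcl6 with IRES-eGFP between loxP sites, and the delta mice come from crossing them to mb1-Cre, which is expressed in the B lineage from the Cd79a locus. The mb1-Cre allele was thus not a feature of the wild-type or floxed groups as described, and the labels do not say which of the transgenic lines, which age or which sex an array came from, nor whether each array is a separate animal. If the arrays are not separate animals, the p-values measure only the spread between these samples. Bcl6, the gene carried by the transgene, had log2 changes of -0.17 (adjusted p = 0.688) and -0.35 (adjusted p = 0.578) when floxed and delta arrays were set against wild-type, so the labels could not be checked from its RNA. For the B cell label, 10 of 11 listed B cell markers were measured, with a mean log2 level of 12.83 to 12.89 in wild-type, 12.74 to 12.85 in floxed and 12.71 to 12.79 in delta arrays. The delta arrays thus lay below the wild-type ones, and 1 of the 10 markers, Cd79a, fell in delta against wild-type (-0.48, adjusted p = 0.0427). Cd79a is also the locus from which mb1-Cre is expressed in the delta mice. A lower B cell signal and an effect of the Cre allele on Cd79a thus cannot be told apart in this marker, which is part of the mean above.

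The mitochondrial ribosome translates the few messenger RNAs of the mitochondrial genome, which encode core subunits of the respiratory chain and of ATP synthase. Its ribosomal RNAs come from mitochondrial DNA, whereas all of its proteins are encoded in the nucleus, made in the cytoplasm and imported. Many of the proteins descend from the bacterial ribosome and others were added in the mitochondrial lineage, and B cells raise mitochondrial translation when they are activated. Of the members, 46 are listed with a bacterial counterpart and 30 as specific to mitochondria, the latter including Mrps18a and Mrps18b. The remaining symbol, Mrps36, now denotes a subunit of the 2-oxoglutarate dehydrogenase complex and is a member only by its symbol. Mrps18a and Mrps30 carry small subunit symbols, but their proteins sit in the large subunit.

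The members are transcribed from many separate promoters, and short motifs of general housekeeping factors recur in these. RefSeq promoter windows on GRCm38.p6, from 250 bases before to 50 bases after a transcript start, were held for 68 of the 77 members, as 74 windows. They were searched on both strands for 4 motifs, none of which contains another: GCATGCGC (nuclear respiratory factor NRF1), CCGGAAGT (ETS factors such as GABPA), AAGATGGC (YY1) and CACGTG (the E-box bound by MYC and USF proteins). The NRF1 motif was in 10.8% of member windows and in 2.71% of all 32851 windows. The ETS motif was in 16.2% against 3.89%, the YY1 motif in 16.2% against 2.75% and the E-box in 9.46% against 7.15%. At least 1 motif was found for 31 members, in 44.6% of their windows against 15.0% of all. A match describes these letters only and is no measure of binding, and no match leaves the factor unknown. The 4 windows below belong to members whose values are given in full further on, and show a YY1 match shortly after the start (Mrpl35, Mrpl49), an ETS match (Mrpl43) and no match (Mrpl57). They are written 5' to 3' in the direction of transcription, with the matched motif in capitals.
Mrpl35 (chr6:71823735-71824034, minus strand): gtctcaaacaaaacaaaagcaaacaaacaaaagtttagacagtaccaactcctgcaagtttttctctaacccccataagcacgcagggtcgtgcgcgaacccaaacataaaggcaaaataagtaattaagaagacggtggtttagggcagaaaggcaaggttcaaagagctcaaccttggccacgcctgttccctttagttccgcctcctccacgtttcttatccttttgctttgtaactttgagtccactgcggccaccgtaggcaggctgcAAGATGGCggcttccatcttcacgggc
Mrpl49 (chr19:6057706-6058005, minus strand): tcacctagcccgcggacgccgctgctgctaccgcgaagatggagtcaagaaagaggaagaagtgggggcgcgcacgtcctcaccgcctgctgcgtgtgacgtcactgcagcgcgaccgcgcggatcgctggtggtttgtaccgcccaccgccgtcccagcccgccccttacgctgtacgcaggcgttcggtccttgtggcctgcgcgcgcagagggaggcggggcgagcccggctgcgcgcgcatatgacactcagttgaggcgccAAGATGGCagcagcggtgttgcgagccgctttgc
Mrpl43 (chr19:45006393-45006692, minus strand): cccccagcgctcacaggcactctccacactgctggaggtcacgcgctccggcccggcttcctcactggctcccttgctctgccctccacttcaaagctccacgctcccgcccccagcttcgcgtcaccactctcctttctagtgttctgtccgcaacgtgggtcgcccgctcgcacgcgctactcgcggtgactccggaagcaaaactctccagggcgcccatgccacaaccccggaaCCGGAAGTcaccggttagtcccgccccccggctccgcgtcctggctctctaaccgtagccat
Mrpl57 (chr14:57825989-57826288, plus strand): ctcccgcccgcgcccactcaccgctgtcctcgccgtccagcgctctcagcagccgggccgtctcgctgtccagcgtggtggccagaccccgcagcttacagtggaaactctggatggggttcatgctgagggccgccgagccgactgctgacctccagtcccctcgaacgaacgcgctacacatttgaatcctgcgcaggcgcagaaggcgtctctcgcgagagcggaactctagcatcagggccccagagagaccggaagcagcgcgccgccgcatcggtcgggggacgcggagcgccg
Of the genes with an NRF1 match, 7 encode large subunit proteins, among them Mrpl10 and Mrpl22, and 1, Mrps18b, a small subunit protein. By symbol, YY1 matches were found for 6 large subunit genes and 6 small subunit genes such as Mrps12, where the members are 48 large and 29 small. The 6 small subunit symbols include Mrps18a, whose protein sits in the large subunit.

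Facts of the whole series bear on what follows. The median RMA intensity of an array lay between 139 and 145, 0 array columns were identical, and correlations across genes were 0.993 to 0.997 for arrays of a group and 0.989 to 0.996 across groups. Judged by Xist and by Uty, Kdm5d and Eif2s3y of the Y chromosome, 3 of 3 wild-type arrays had a female pattern and 3 of 3 floxed arrays a male pattern, so in that comparison sex and genotype cannot be told apart. Of the delta arrays, 3 had a female pattern and 1, delta 1, a male one. Markers of other cells also moved with the groups. The summed RMA intensity of 10 measured of 10 listed NK cell markers was 675 to 786 in wild-type, 1115 to 1419 in floxed and 708 to 1150 in delta arrays. For 11 of 11 myeloid markers the sums were 1115 to 1136, 1582 to 2038 and 1263 to 2468. The highest myeloid and NK sums of the delta arrays were those of delta 4. The 11 measured of 14 T cell markers summed to 3923 to 4241, 4186 to 4711 and 3868 to 4719, and 8 of 12 erythroid markers to 1756 to 2745, 2785 to 3707 and 1387 to 2678. The 6 of 6 plasma cell markers summed to 3604 to 3727 in wild-type, below the 4020 to 4209 of floxed and the 3979 to 4525 of delta arrays, and 2 of the 6 passed in floxed against wild-type: Jchain rose by 1.64 (adjusted p = 0.00383) and Sdc1 fell by 0.51 (adjusted p = 0.0450). For 6 of 7 plasmacytoid dendritic cell markers the sums overlapped, at 2517 to 2809, 2664 to 2838 and 2449 to 2915. Delta 4 also had the highest T cell and plasmacytoid dendritic cell sums of the delta arrays. The highest erythroid sum of the delta arrays was that of delta 2, and the highest plasma cell sum that of delta 1. The part of these cells, and of the lower B cell marker level in delta arrays, in the members' values was not tested, and in such bulk samples fewer cells of a type and less RNA per cell cannot be told apart.

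The members covered a middle range of signal; whether a probe set lay above background was not tested. The mean log2 RMA intensity of a member ran from 6.60 (Mrpl42) to 10.53 (Mrpl23) with a median of 8.73, where the median of all genes was 7.20. A probe set's own affinity sets part of its level, so levels of different genes are not ranked. The median level of the large subunit genes was 8.77 ± 0.16 in wild-type (SD, n = 3), 8.78 ± 0.08 in floxed arrays (SD, n = 3) and 8.74 ± 0.07 in the delta group (SD, n = 4). For the small subunit genes it was 8.74 ± 0.06, 8.67 ± 0.10 and 8.64 ± 0.08. Group means of the large subunit level differed by less than the spread between arrays, and the small subunit ranges of wild-type (8.68 to 8.80) and delta (8.55 to 8.73) overlapped. The members were measured about as tightly as all genes together: the median residual SD within groups was 0.105 (log2) over the members and 0.105 over all genes. It was 0.0971 over the genes with a mean log2 level of at least 7. Over the large subunit genes it was 0.102, and over the small subunit genes 0.122. Mrpl35, Mrpl20 and Mrpl15 had the widest spread, with residual SDs of 0.253, 0.253 and 0.230, and Mrpl4 the narrowest, 0.061.

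Single arrays of a group differed from each other in both subunits. For each array the shift was computed, which is the median over members of the log2 difference from the wild-type mean of each gene. The wild-type arrays are part of this reference, so their shifts are centred on it by construction. In wild-type 1, 2 and 3 the large subunit genes had shifts of -0.02, -0.11 and 0.13, and the small subunit genes -0.02, -0.07 and 0.11. In floxed 1, 2 and 3 the large subunit shifts were -0.05, -0.03 and -0.01, and the small subunit shifts -0.04, -0.06 and 0.04. The floxed shifts lay between those of wild-type 2 and wild-type 3. In delta 1 to 4 the large subunit shifts were -0.09, -0.03, -0.02 and -0.15, and the small subunit shifts -0.07, -0.03, -0.0031 and -0.15. Delta 4 was thus the lowest of the 10 arrays for both subunits, wild-type 3 the highest for both, and the delta and wild-type ranges overlapped. Over all genes the shift ran from -0.025 to 0.015 in the 10 arrays, and over the 10780 genes with a mean log2 level of at least 7 from -0.017 to 0.037.

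**Figure D1:**
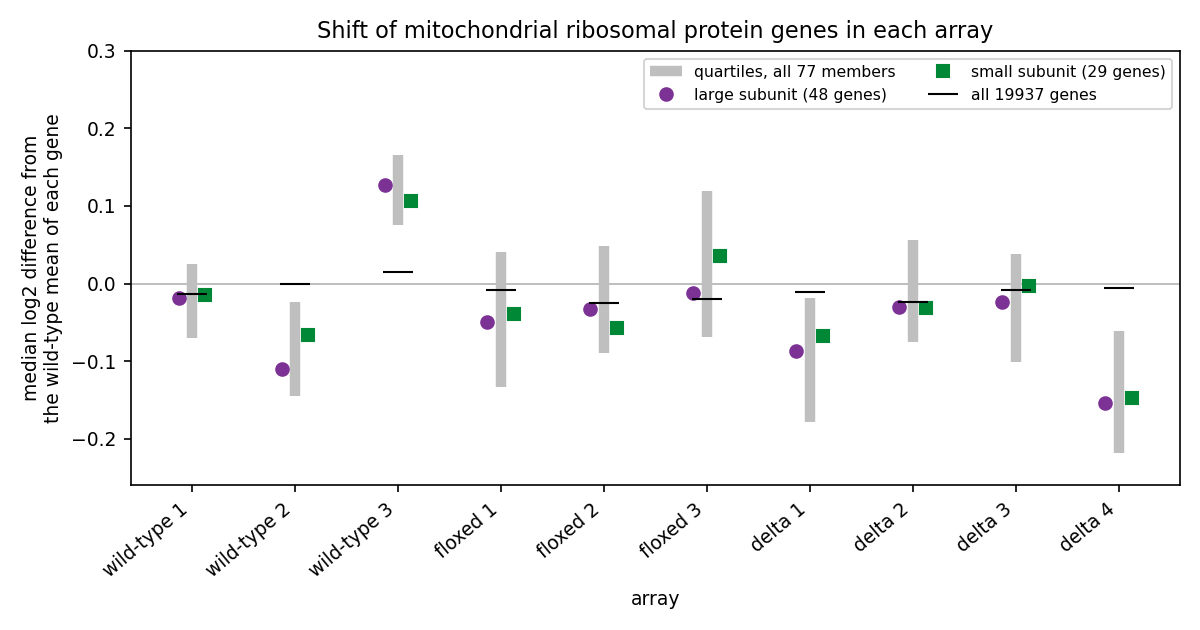
Median log2 difference from the wild-type mean of each gene (y axis) in each of the 10 arrays (x axis), for 48 large subunit genes (circles) and 29 small subunit genes (squares), with grey bars for the quartiles of all 77 members and dashes for the median of all 19937 genes. Both subunits are highest in wild-type 3 (0.13 and 0.11) and lowest in delta 4 (-0.15 and -0.15), while the median of all genes stays near 0.

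These shifts were spread over many members. Wild-type 3 was the highest wild-type array in 63 of 77 members (81.8%), against 41.0% of all genes, and wild-type 2 the lowest in 54 (70.1%), against 34.9%. Delta 4 was the lowest delta array in 44 members (57.1%), against 23.4% of all genes. Among the floxed arrays the members were more evenly divided than in wild-type. Floxed 3 was highest in 36 (46.8%), against 35.8% of all genes, and floxed 1 lowest in 37 (48.1%), against 31.0%. Both comparisons against wild-type share these 3 wild-type arrays, so their values are given side by side and not as separate evidence.

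**Figure D2:**
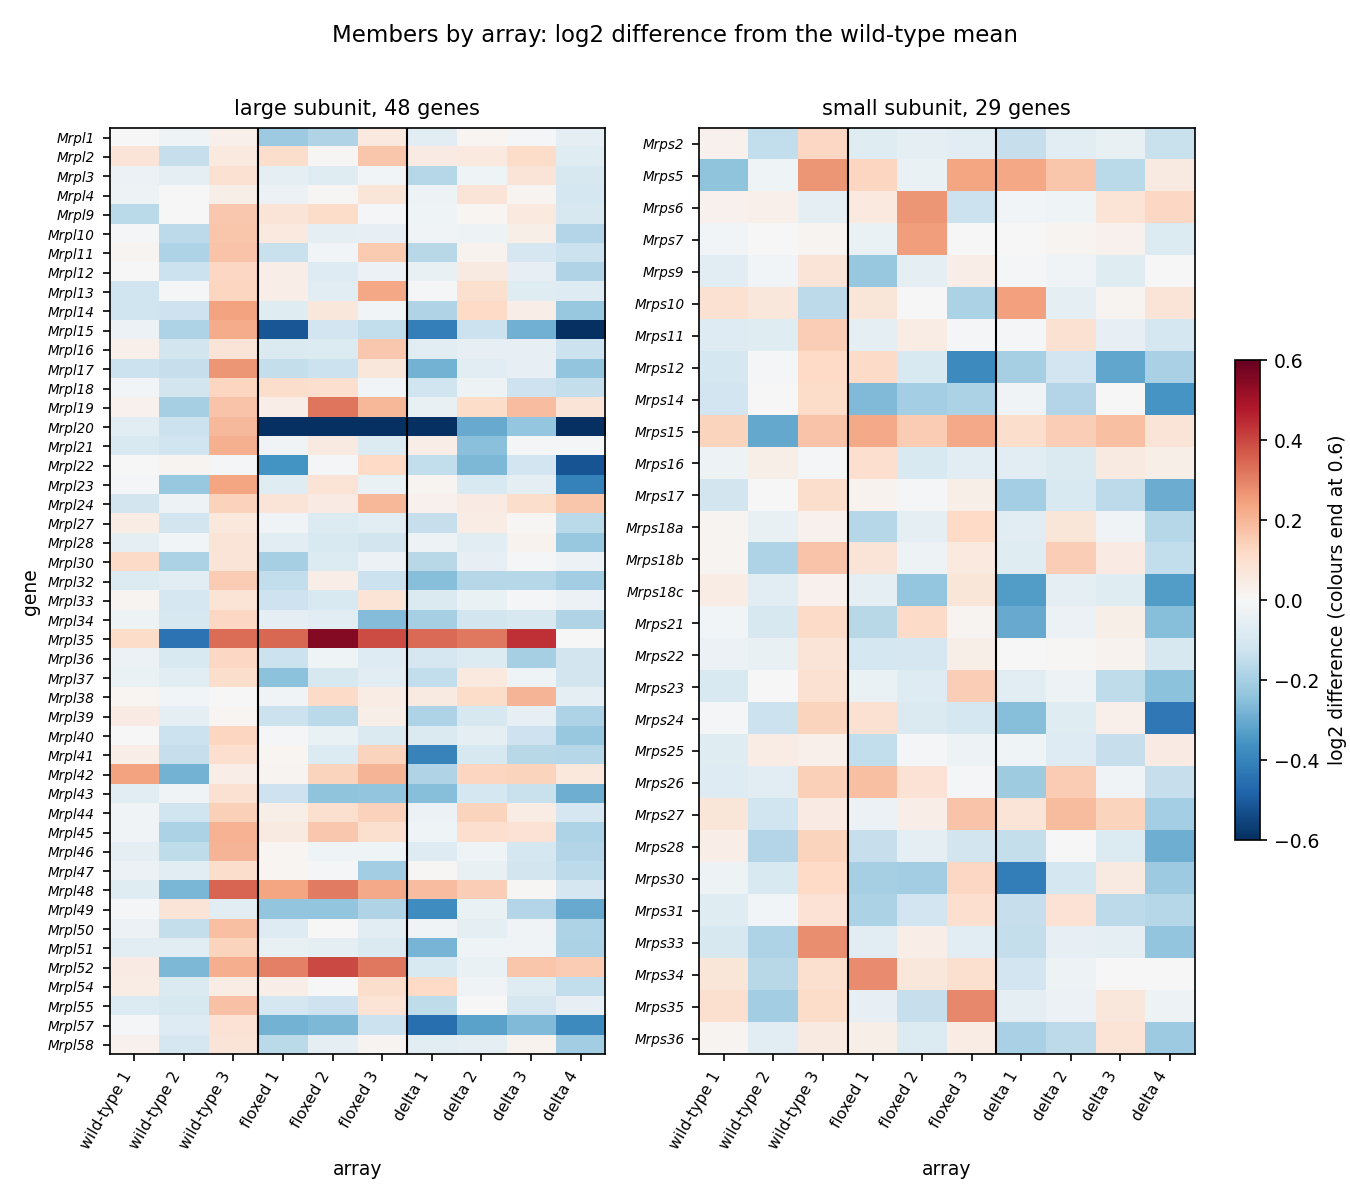
Log2 difference of each member (rows, in order of symbol number) from its wild-type mean in each array (columns; black lines separate wild-type, floxed and delta), with 48 large subunit genes on the left and 29 small subunit genes on the right. Colours end at 0.6 in either direction. The column of wild-type 3 is mostly red and those of wild-type 2 and delta 4 mostly blue, while Mrpl20 is blue in all floxed and delta arrays.

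The same arrays stood out for other nuclear genes of translation and respiration. The 61 cytoplasmic ribosomal protein genes, taken by symbol, had shifts of -0.02, -0.10 and 0.11 in wild-type 1, 2 and 3, and the 81 nuclear genes of the respiratory chain and ATP synthase 0.0022, -0.10 and 0.10. Wild-type 3 was the highest wild-type array in 52 of the 61 cytoplasmic genes and 68 of the 81 respiratory genes. In the floxed and delta arrays the cytoplasmic genes lay above the members, both subunits together: at 0.05 to 0.09 against -0.04 to 0.01 in floxed arrays, and at 0.03, 0.06, 0.08 and 0.009 against -0.08, -0.03, -0.02 and -0.15 in delta 1 to 4. The respiratory genes had -0.08, -0.01, 0.04 and -0.12 in delta 1 to 4. Delta 4 was the lowest delta array in 33 of the 61 cytoplasmic genes (54.1%) and 47 of the 81 respiratory genes (58.0%). Both shares were near the 57.1% of the members.

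**Figure D3:**
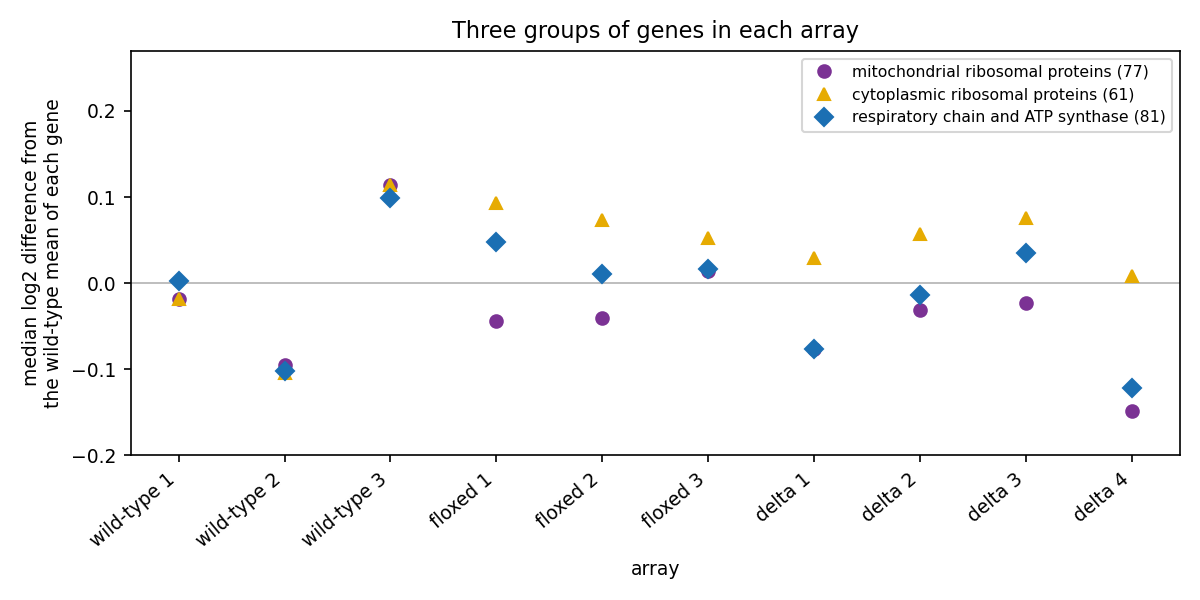
Median log2 difference from the wild-type mean of each gene (y axis) in each array (x axis) for the 77 mitochondrial ribosomal protein genes (circles), 61 cytoplasmic ribosomal protein genes (triangles) and 81 respiratory chain and ATP synthase genes (diamonds). The 3 groups of genes lie together in the wild-type arrays, which are part of their own reference. In every floxed and delta array the cytoplasmic genes lie above the mitochondrial ones. Examples are 0.09 against -0.04 in floxed 1 and 0.009 against -0.15 in delta 4.

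Floxed against wild-type asks what differs in B cells that carry the intact transgene. The subunit medians lay near that of all genes, and a change shared by the members was not tested. The median log2 change was -0.03 for the large and -0.02 for the small subunit, beside -0.02 for all genes, and 49 of 77 changes (63.6%) were below 0, beside 58.1% of all genes and 51.4% of those with a mean log2 level of at least 7. In limma's test, 0 of 77 members passed an adjusted p of 0.05, where 0.552% of all genes did. At an unadjusted p under 0.05 there were 7 members (9.09%), 2 higher and 5 lower, where 12.8% of all genes passed. The groups did not overlap in 9 members (11.7%), beside 16.7% of all genes: 7 were lower (9.13% of all genes) and 2 higher (7.6% of all genes). Of genes at a level of at least 7, 15.5% had an unadjusted p under 0.05 and 19.6% did not overlap, 8.40% lower and 11.2% higher. Both totals of the members lay below these background shares. The 95% confidence interval of the change lay within 0.5 of 0 (1.41-fold) for 72 of 77 members; the others were Mrpl15, Mrpl20, Mrpl35, Mrpl48 and Mrpl52.

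Mrpl20, a large subunit protein that in bacteria binds the ribosomal RNA early in assembly, had the smallest p of the members. Its log2 RMA intensity was 8.71, 8.65 and 8.97 in wild-type 1 to 3, and 8.14, 8.16 and 8.14 in floxed 1 to 3. In delta 1 to 4 it was 7.94, 8.48, 8.55 and 7.85. All floxed and all delta arrays thus lay below all wild-type arrays, while the delta values were the most widely spread and enclosed the floxed values. Group means were 8.78 ± 0.17 (SD, n = 3), 8.15 ± 0.01 (SD, n = 3) and 8.20 ± 0.36 (SD, n = 4). The change of Mrpl20 was -0.63 between floxed and wild-type (SE 0.17, 95% CI -1.0 to -0.26, adjusted p = 0.131), and for delta it was -0.57 (SE 0.16, adjusted p = 0.322). Fitted with the wild-type and floxed arrays alone, which leaves out the wide delta group, Mrpl20 passed the threshold (adjusted p = 0.0150); over all alternatives that value ran from 0.0150 to 0.868. The change fell to -0.28 (adjusted p = 0.868) with the sex pattern as a covariate, a fit that rests on delta 1, one of the pair of delta arrays with low Mrpl20.

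Among other proteins with a bacterial counterpart, Mrps14 sits in the head of the small subunit. Its log2 intensity was 7.98, 8.09 and 8.20 in wild-type, 7.83, 7.89 and 7.90 in floxed and 8.07, 7.92, 8.09 and 7.73 in delta arrays. Floxed arrays lay below wild-type ones and delta arrays overlapped both (floxed against wild-type -0.22, SE 0.10, adjusted p = 0.369). Mrpl35, a large subunit protein, went the other way, with 8.80, 8.25 and 9.02 in wild-type and 9.04, 9.24 and 9.08 in floxed arrays. The low wild-type 2 array takes part in that difference (0.43, SE 0.17, adjusted p = 0.321), and the delta arrays, at 8.69 to 9.13 and lowest in delta 4, overlapped both groups. Mrps15 and Mrpl19, of the small and large subunit, showed the same low wild-type 2: Mrps15 had 10.09, 9.65 and 10.12 in wild-type and 10.11 to 10.18 in floxed arrays, and Mrpl19 8.80, 8.57 and 8.94 against 8.81 to 9.09. Their changes of 0.20 and 0.19 had adjusted p values of 0.468 and 0.486.

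Of the proteins specific to mitochondria, Mrpl43 and Mrpl49 lay lower in floxed arrays. Mrpl43 had log2 intensities of 9.33, 9.38 and 9.49 in wild-type and 9.28, 9.16 and 9.16 in floxed arrays (-0.20, SE 0.07, adjusted p = 0.284). Mrpl49 had 9.77, 9.86 and 9.71 against 9.54, 9.54 and 9.60 (-0.22, SE 0.08, adjusted p = 0.308). The groups did not overlap for either gene. Mrpl52 lay higher, at 9.58, 9.67 and 9.59 in floxed against 9.32, 9.01 and 9.49 in wild-type arrays (0.34, SE 0.12, adjusted p = 0.237), and in Mrpl48 the 9.31, 9.39 and 9.31 of the floxed arrays lay between the 9.43 of wild-type 3 and the 9.01 and 8.80 of the others (0.26, adjusted p = 0.452). None of these passed the threshold. With the sex pattern as a covariate, a fit that rests on delta 1, the floxed against wild-type changes of Mrps14, Mrpl43, Mrpl49, Mrpl57, Mrpl52 and Mrpl48 were -0.38, -0.12, -0.02, -0.10, 0.52 and 0.09. The count of members without overlap rested on single arrays, with 17 members without wild-type 2, 22 without wild-type 3 (15 of them higher) and 17 without floxed 3; the background rose as well, to 24.2%, 28.6% and 29.05% of all genes. Without wild-type 3 the median change turned to 0.04 for the large and 0.03 for the small subunit, and without wild-type 2 it was -0.09 and -0.06.

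**Figure D4:**
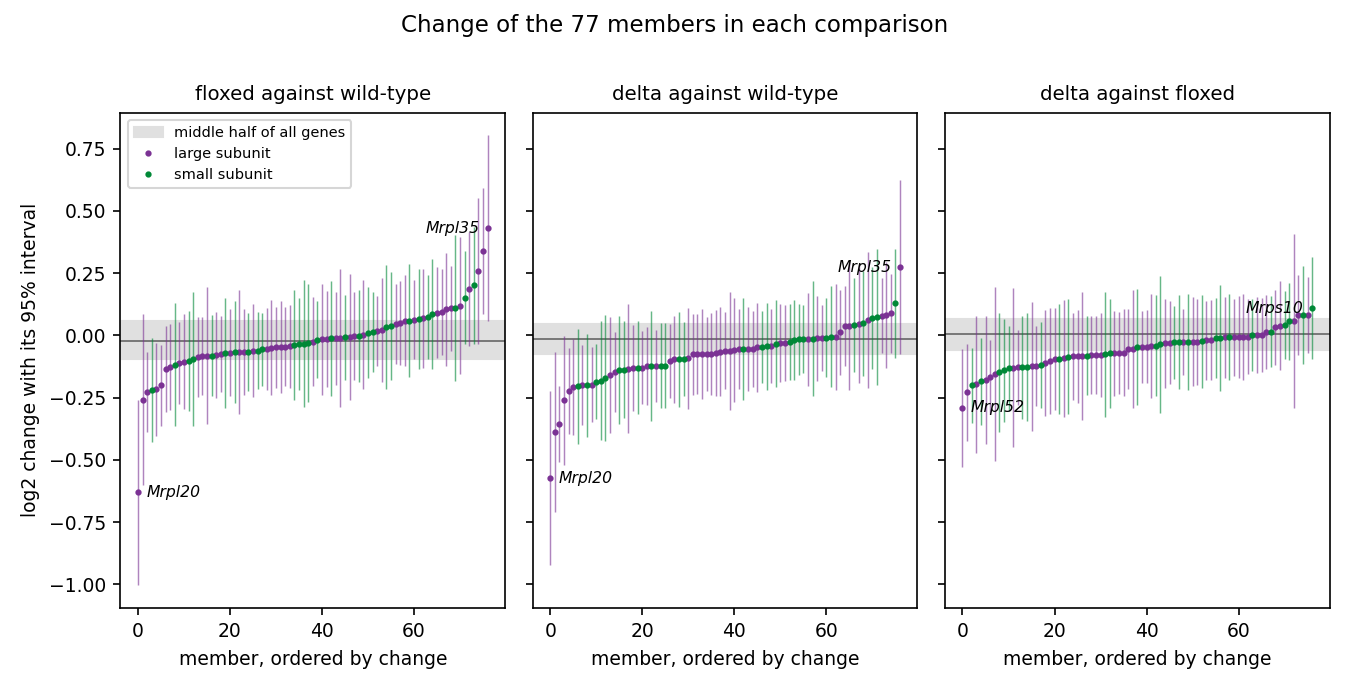
Log2 change of each of the 77 members with its 95% confidence interval (y axis), ordered by size within each comparison (x axis), in purple for large and green for small subunit genes; the grey band spans the quartiles of all genes. Most intervals include 0, and the lower end holds Mrpl20 in both comparisons against wild-type (-0.63 and -0.57) and Mrpl52 in delta against floxed (-0.29).

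Delta against wild-type asks what differs in B cells of mice in which Cre had acted on the transgene. Changes of members were small and mostly below 0. The median log2 change was -0.07 for the large and -0.05 for the small subunit, beside -0.01 for all genes, and 63 of 77 members (81.8%) were below 0, beside 56.4% of all genes and 53.1% of those at a level of at least 7. In limma's test 0 members passed the threshold, where 0.0752% of all genes did, and 9 members (11.7%), all lower, had an unadjusted p under 0.05, where 7.89% of all genes did. The groups did not overlap in 7 members (9.09%), beside 9.25% of all genes. All 7 were lower, where 5.5% of all genes were lower and 3.75% higher in this way. Of genes at a level of at least 7, 9.84% had an unadjusted p under 0.05 and 11.4% did not overlap, 6.13% lower and 5.31% higher. The interval lay within 0.5 of 0 for 72 members, all but Mrpl15, Mrpl20, Mrpl22, Mrpl35 and Mrpl57, and within 1 of 0 for all 77. Without wild-type 3 the medians were -0.01 and -0.02, and without wild-type 2 they were -0.12 and -0.10. The count without overlap was 23 members without wild-type 2 (17.9% of all genes) and 15 without delta 2 (14.2% of all genes). With wild-type 3 and delta 4 both left out, a setting chosen after seeing the data, the medians were 0.01 and -0.01.

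Mrpl57, a small protein of the large subunit that is specific to mitochondria and whose promoter window is printed above without a motif, had the smallest p here. Its log2 intensity was 9.13, 9.06 and 9.22 in wild-type 1 to 3, 8.85, 8.87 and 9.01 in floxed 1 to 3 and 8.68, 8.81, 8.87 and 8.75 in delta 1 to 4. Every floxed and delta array lay below every wild-type array, and the delta and floxed arrays overlapped. Group means were 9.14 ± 0.08 (SD, n = 3), 8.91 ± 0.09 (SD, n = 3) and 8.78 ± 0.08 (SD, n = 4). The change of Mrpl57 was -0.36 between delta and wild-type (SE 0.07, 95% CI -0.51 to -0.20, adjusted p = 0.141), and for floxed it was -0.23 (SE 0.07, adjusted p = 0.216). The adjusted p of the first stayed above the threshold under every alternative run (0.0680 to 0.429), with changes of -0.39 to -0.30.

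Mrpl43 and Mrpl49 were also among the 5 lowest p values. In delta 1 to 4 Mrpl43 had 9.14, 9.29, 9.27 and 9.11, all below the wild-type arrays, and Mrpl49 had 9.40, 9.74, 9.60 and 9.48, where delta 2 lay above wild-type 3. Their changes were -0.20 and -0.22 (adjusted p = 0.480 and 0.486), close to those in floxed arrays, with which they share the wild-type reference. Mrpl32, a large subunit protein that is cleaved by a mitochondrial protease before assembly, had 7.76, 7.77 and 7.99 in wild-type, 7.69, 7.88 and 7.71 in floxed and 7.59, 7.67, 7.67 and 7.63 in delta arrays. Its delta arrays lay below all others (-0.20 against wild-type, SE 0.07, adjusted p = 0.50). Mrpl15, also of the large subunit, had 8.66, 8.51 and 8.92 in wild-type, 8.18, 8.58 and 8.55 in floxed and 8.28, 8.56, 8.41 and 7.97 in delta arrays, with wide overlap (-0.39 in delta against wild-type, adjusted p = 0.516).

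The members with the smallest p among those above wild-type moved little in delta arrays. Mrpl35 was 0.27 higher (adjusted p = 0.756), Mrps15 0.13 and Mrpl19 0.08 (adjusted p = 0.836 and 0.909); without wild-type 2 they were 0.05, -0.02 and -0.02. Mrpl24, at the exit of the peptide tunnel, had 9.64, 9.72 and 9.89 in wild-type and 9.78, 9.80, 9.86 and 9.92 in delta arrays (0.09, adjusted p = 0.845). Mrpl38, specific to mitochondria, had 9.15, 9.12 and 9.14 against 9.19, 9.25, 9.35 and 9.08 (0.08, adjusted p = 0.864). Delta and wild-type arrays overlapped in each of these 5 genes.

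**Figure D5:**
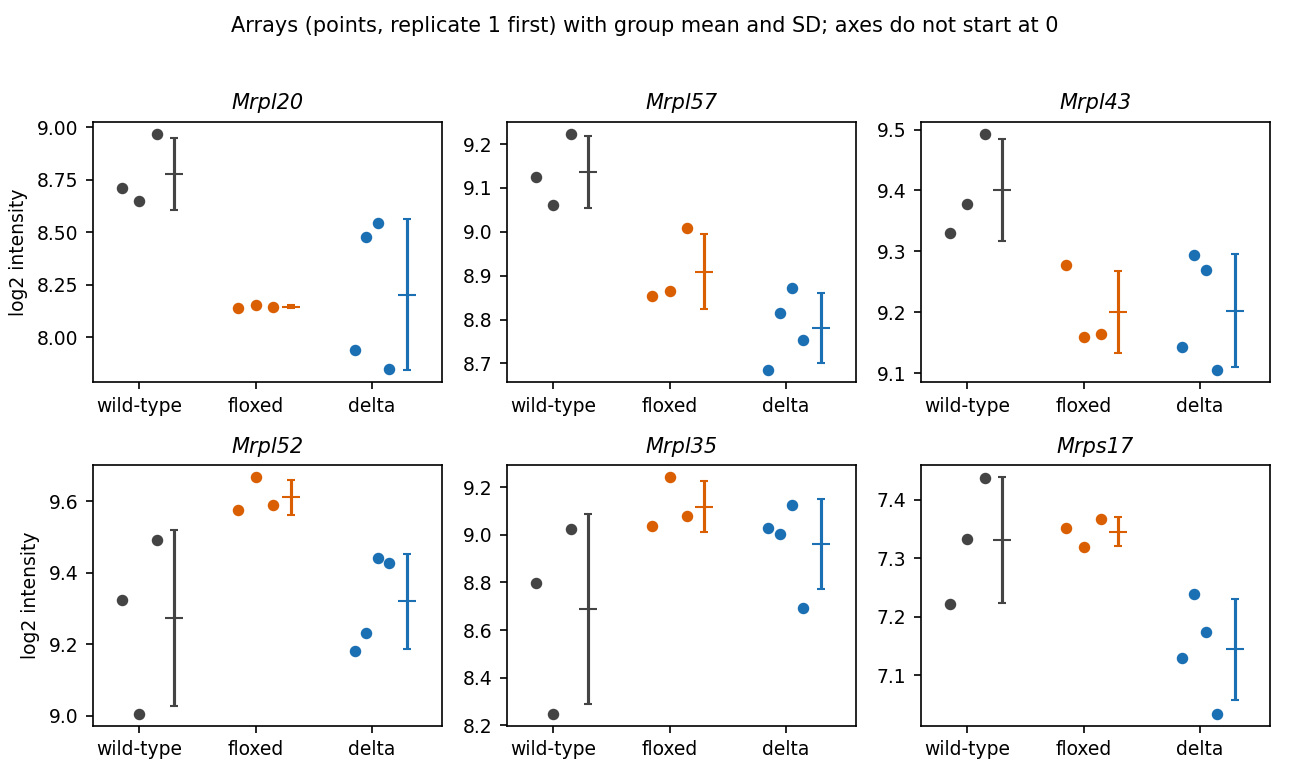
Log2 RMA intensity (y axis, not starting at 0) of Mrpl20, Mrpl57, Mrpl43, Mrpl52, Mrpl35 and Mrps17 in each array (points) by group (x axis), with the group mean and SD beside them (wild-type n = 3, floxed n = 3, delta n = 4). Mrpl20, Mrpl57 and Mrpl43 lie below wild-type in all floxed and delta arrays, and Mrpl52 and Mrps17 lie below floxed in all delta arrays.

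Delta against floxed compares the transgene after and before Cre. The groups also differ in the mb1-Cre allele and mostly in sex pattern, with 3 floxed arrays male, and 3 delta arrays female and 1 male. The part of these differences in the changes below was not tested. The median log2 change was -0.06 for the large and -0.04 for the small subunit, beside 0.0045 for all genes, and 63 of 77 members (81.8%) were below 0, beside 47.9% of all genes and 53.7% of those at a level of at least 7, whose median was -0.0075. By limma 0 members passed the threshold, where 0.00502% of all genes did, and 5 members (6.49%), all lower, had an unadjusted p under 0.05, beside 6.42% of all genes. The groups did not overlap in 7 members (9.09%), beside 6.96% of all genes. All 7 were lower, where 3.61% of all genes were lower and 3.36% higher. Of genes at a level of at least 7, 5.96% had an unadjusted p under 0.05 and 7.63% did not overlap, 4.90% lower and 2.73% higher. The interval lay within 0.5 of 0 for 75 members, all but Mrpl35 and Mrpl52. The medians stayed below 0 with each array left out, at -0.07 to -0.04 for the large and -0.08 to -0.02 for the small subunit. The count without overlap was 11 members without floxed 1, 14 without floxed 3 and 11 without delta 3, where 16.8%, 16.8% and 11.01% of all genes did not overlap.

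Mrps17, which lies in the body of the small subunit and has a bacterial counterpart, had the smallest p. Its log2 intensity was 7.35, 7.32 and 7.37 in floxed, 7.13, 7.24, 7.17 and 7.03 in delta and 7.22, 7.33 and 7.44 in wild-type arrays. All delta arrays lay below the floxed ones, and wild-type 1 lay among the delta arrays (-0.20, SE 0.07, 95% CI -0.35 to -0.05, adjusted p = 0.721). Mrpl52 had 9.18, 9.23, 9.44 and 9.43 in delta arrays, below the 9.58 to 9.67 of the floxed ones and within the wild-type range (-0.29, SE 0.11, 95% CI -0.53 to -0.06, adjusted p = 0.731). Mrpl18, whose bacterial relative binds 5S RNA, had 9.52, 9.51 and 9.39 in floxed and 9.29, 9.38, 9.29 and 9.27 in delta arrays (-0.17, adjusted p = 0.748). Mrps34, specific to mitochondria, had 8.39, 8.18 and 8.20 against 7.99, 8.07, 8.11 and 8.11 (-0.18, adjusted p = 0.768). In Mrpl18 floxed 3 and delta 2 nearly touched, and in Mrps34 the delta arrays lay within the wild-type range of 7.94 to 8.20.

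Members above 0 in delta against floxed were few and their differences small. The 5 with the smallest p were Mrps14, Mrpl37, Mrpl1, Mrps10 and Mrps9, with changes of 0.08, 0.08, 0.08, 0.11 and 0.06 and adjusted p values of 0.877 to 0.923. Mrpl1, the protein of the L1 stalk where spent transfer RNA leaves, had 8.63, 8.67 and 8.91 in floxed and 8.78 to 8.86 in delta arrays. Mrps10 had 8.54, 8.46 and 8.27 against 8.40 to 8.71, Mrpl37 9.42, 9.57 and 9.60 against 9.52 to 9.72, and Mrps9 8.33, 8.49 and 8.59 against 8.48 to 8.55. All of these overlapped. The sign turned for Mrpl37 with the sex pattern as a covariate (-0.01) and for Mrps9 without floxed 1 (-0.02).

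The members were also taken by origin, and the difference between the kinds was not tested. Over the 46 with a bacterial counterpart the median changes were -0.03, -0.06 and -0.04 for floxed and delta against wild-type and for delta against floxed, in that order, and over the 30 specific to mitochondria -0.02, -0.06 and -0.07. A few proteins of known role, named for the role and not for their values, illustrate the level of change. Mrpl12 of the stalk that recruits translation factors changed by -0.03, -0.06 and -0.03, with log2 intensities of 9.19 to 9.45 in wild-type, 9.24 to 9.36 in floxed and 9.14 to 9.37 in delta arrays. Mrpl45, which ties the ribosome to the inner membrane, differed by 0.11, -0.01 and -0.11, and Mrpl58, a peptidyl-tRNA hydrolase that became part of the large subunit, by -0.07, -0.08 and -0.01. Mrps12, at the decoding centre, had 7.45, 7.54 and 7.68 in wild-type, 7.67, 7.47 and 7.18 in floxed and 7.36, 7.44, 7.25 and 7.36 in delta arrays. All delta arrays of Mrps12 lay below wild-type (-0.21, adjusted p = 0.692), with delta 2 next to wild-type 1.

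The Mrps18 paralogues derive from 1 bacterial protein, and each takes a different place: Mrps18c that of the bacterial one, Mrps18b another site of the small subunit, and Mrps18a a site in the large subunit. Mrps18a had group means of 9.15 ± 0.04, 9.11 ± 0.15 and 9.10 ± 0.10 (SD; n = 3, 3 and 4), and Mrps18b 9.77 ± 0.18, 9.81 ± 0.06 and 9.77 ± 0.13. Mrps18c had 8.83 ± 0.06, 8.76 ± 0.15 and 8.63 ± 0.16, with 8.50, 8.78, 8.76 and 8.50 in delta arrays. Its change in delta against wild-type was -0.20 (SE 0.09, adjusted p = 0.653), and those of Mrps18a and Mrps18b were -0.04 and -0.01. The differences between the paralogues were not tested.

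Some members were measured more than once. Of the 8 members with several single-symbol probe sets, the sign of the change differed between them in 3 members in floxed against wild-type, 1 in delta against wild-type and 2 in delta against floxed. Mrpl41, specific to mitochondria, differed in all 3 comparisons. The probe set used, the brighter one, had 8.17, 8.08 and 8.29 in floxed and 7.76, 8.06, 7.99 and 7.99 in delta arrays (-0.23, SE 0.09, adjusted p = 0.736), and the other probe set changed by 0.08 (SE 0.07). The low level of delta arrays in Mrpl41 thus rests on 1 of its probe sets. In Mrpl27 the probe sets changed by -0.05 and 0.02 and in Mrps36 by -0.0025 and 0.12 in floxed against wild-type, and in Mrpl47 by -0.01 and 0.01 in delta against floxed. For all 8 of these members, which probe set reads the gene itself was not settled. RefSeq lists pseudogene copies of Mrpl23, Mrpl27, Mrpl48 and Mrps36, so the values of these 4 are uncertain as well. Mrpl53 was not a member because its probe set carries several symbols.

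Other genes of mitochondrial translation were not called either: 0 of 4 measured mitoribosomal proteins without an Mrp symbol, 0 of 12 translation factors, 0 of 19 aminoacyl-tRNA synthetase genes, 0 of 26 assembly and RNA modification genes and 0 of 9 genes of mitochondrial transcription and DNA maintenance passed limma's threshold in any comparison. At an unadjusted p under 0.05 the counts in floxed against wild-type were 0, 0, 1, 2 and 2, where 12.8% of all genes passed. Among these, Tufm, the elongation factor that brings aminoacyl-tRNA to the ribosome, changed by 0.08, -0.0002 and -0.08 in the 3 comparisons in the order above. Tfam, which packages mitochondrial DNA, changed by 0.01, -0.01 and -0.01, and Polrmt, the mitochondrial RNA polymerase, by -0.11, -0.01 and 0.10. Tfb2m, its initiation factor, had 9.84, 9.65 and 10.07 in wild-type and 9.31, 8.94 and 9.61 in floxed arrays, which do not overlap (-0.57, adjusted p = 0.122).

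Of 9 regulators of mitochondrial biogenesis, 1 passed the threshold, and only in floxed against wild-type, where 0.552% of all genes did. Ppargc1a, the coactivator PGC-1 alpha, had log2 intensities of 7.52, 7.67 and 7.80 in wild-type, 8.19, 8.16 and 8.17 in floxed and 8.10, 7.84, 7.93 and 7.90 in delta arrays. It rose by 0.51 from wild-type to floxed (SE 0.08, adjusted p = 0.0282), and was 0.28 in delta against wild-type (adjusted p = 0.344) and -0.23 from floxed to delta (adjusted p = 0.721). The call for Ppargc1a ended without wild-type 1 or 2 (adjusted p = 0.101 and 0.111), without floxed 1, 2 or 3 (0.0733, 0.0884 and 0.0840), with the mean of its probe sets (0.105), with the replicate block (0.0505) and with the sex pattern as a covariate (0.30 in place of 0.51, adjusted p = 0.683). Nrf1 and Gabpa, whose motifs are searched above, changed by -0.06 and 0.05 in floxed and by -0.01 and 0.01 in delta against wild-type. Myc had 10.24, 9.87 and 10.63 in wild-type, 10.88, 10.99 and 10.76 in floxed and 11.81, 10.71, 10.83 and 11.23 in delta arrays, with no overlap with wild-type. Its differences of 0.63 and 0.90 had adjusted p values of 0.330 and 0.293, and Ppargc1b was 0.11 and 0.14 higher without passing.

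Set beside the members, the cytoplasmic ribosomal protein genes had median changes of 0.07, 0.03 and -0.04 in the same order, and the respiratory chain and ATP synthase genes 0.04, -0.05 and -0.08. In both of these groups 0 genes passed the threshold in any comparison, where 0.552%, 0.0752% and 0.00502% of all genes did, in that order. At an unadjusted p under 0.05 there were 7, 3 and 0 of the 61 cytoplasmic genes (11.5%, 4.92% and 0%). Of the 81 respiratory genes there were 4, 6 and 3 (4.94%, 7.41% and 3.70%), beside 12.8%, 7.89% and 6.42% of all genes. In delta against floxed 47 of 61, 68 of 81 and 63 of 77 genes lay below 0 in the cytoplasmic, respiratory and mitochondrial ribosomal groups, beside 47.9% of all genes and 53.7% of those at a level of at least 7. The differences between the groups of genes were not tested.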

How the data were processed

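Gene expression was measured on 10 arrays (3 wild-type, 3 floxed, 4 delta). The deposited values are the authors' linear RMA intensity per probe set, made with RMA per the submitters' processing notes; RMA corrects background, normalizes between arrays and summarises probes. Its version and the build: not given in the sources used here. Log2 was taken. Array number, not depth, limits the precision. For genes with several single-symbol probe sets the one with the highest mean was used. Differences were tested with limma 3.58.1 in R 4.3.3 (lmFit with a mean per group over all 10 arrays, eBayes, two-sided), adjusted by Benjamini-Hochberg over 19937 genes at 0.05; the procedure was tested on simulated data. Sets of genes were described by counts and medians, without a test. Groups did not overlap where all arrays of one lay beyond all arrays of the other. S6 kinase and other look-alike symbols were left out of the cytoplasmic ribosomal proteins.

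The members and lists were chosen with earlier results of these data known. Named members are any past the threshold, the 5 smallest p in each direction per comparison, the Mrps18 paralogues, those whose probe sets differ in sign and the 3 with the widest spread; Mrpl12, Mrpl45, Mrpl58 and Mrps12 lie outside this rule. Alternatives covered the normalization, array weights, the variance prior, dim genes, several probe sets per gene, the arrays in the fit, a fold threshold, membership, a replicate block, sex pattern and each array left out. Leaving out wild-type 3 and delta 4 together was added after seeing the data.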

Additional observations from a re-analysis of the deposited data

How the results depend on the processing

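No member passed the threshold under any alternative but 1: with only the 2 groups compared, the count for floxed against wild-type was 1 (Mrpl20) in place of 0. With each array left out in turn, members without overlap numbered 9 to 22 in floxed against wild-type (11.7% to 28.6%), beside 16.7% to 30.1% of all genes. In delta against wild-type they numbered 7 to 23 (9.09% to 29.9%), beside 9.25% to 19.2% of all genes. In delta against floxed they numbered 7 to 14 (9.09% to 18.2%), beside 6.96% to 16.8% of all genes. Leaving out wild-type 3 and delta 4 together was a setting added after seeing the data. Members without overlap then numbered 22 in floxed and 15 in delta against wild-type. These were 28.6% and 19.5% of members, beside 28.6% and 25.6% of all genes. Fewer arrays make overlap less likely by construction. The 31 named results (21 members and Ppargc1a) were each refitted under 21 alternatives, which gave 651 values. In 4 of these values, each of a different result, the sign changed. Mrpl37 in delta against floxed was -0.0107 with the sex pattern as a covariate. The rest came with an array left out. Mrps15 in delta against wild-type then ran from -0.0238 (without wild-type 2) to 0.214 (without wild-type 3), and Mrpl19 likewise from -0.0168 to 0.17. Mrps9 in delta against floxed ran from -0.0165 (without floxed 1) to 0.117 (without floxed 3). The cause was not tested. Replicate numbers did not pair the samples (r between -0.083 and 0.121). With the replicate block, in which delta 4 has a block of its own and drops out, the large subunit median changes were -0.03, -0.04 and -0.04 and the small subunit ones -0.02, -0.05 and -0.04, and 0 members were called. The number of arrays limits what could be detected.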
